A study of Arabidopsis thaliana with 33 samples.

Results

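Shoots held at a total pressure of 25 kPa without extra oxygen were compared directly with shoots held at 97 kPa in air whose oxygen had been lowered (97 kPa/HypOx), an atmosphere pair in which oxygen was nearly equal and total pressure differed. The arrays were chosen by their titles alone: 3 shoot arrays at 25 kPa and 2 shoot arrays at 97 kPa/HypOx, which makes 5 of the 18 shoot arrays and of the 33 arrays of the series. All plants were Arabidopsis thaliana ecotype Wassilewskija (WS), grown on vertical plates in constant light and moved at an age of 10 days into low pressure growth chambers for 24 h. Neither group carried a transgene, a mutation or a supplement, and carbon dioxide was kept at 0.05 kPa in both. The labels gave an oxygen partial pressure of 5.1 kPa for 97 kPa/HypOx and none for 25 kPa, for which the methods described the same oxygen level. A sample was the RNA of about 12 plants of 1 plate from 1 chamber, and "shoot" meant the whole aerial part with the hypocotyl. The methods described 1 sample from each of 3 chambers per treatment. Shoots at 50 kPa with oxygen restored had 4 arrays, however, so not all of these can be assigned to separate chambers. The 97 kPa control arrays entered only the estimate of the spread and are given below as levels for reference, with no test.

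Plants sense low oxygen through plant cysteine oxidases, which use oxygen to mark group VII ethylene response factors for degradation. When oxygen falls these factors persist and switch on a small conserved set of genes for ethanolic fermentation, sucrose breakdown, hemoglobin and feedback control. Lowering total pressure at a fixed oxygen level also speeds gas diffusion and water loss, so that leaves at low pressure can face drying as well as oxygen shortage.

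RNA was measured on Affymetrix ATH1 arrays, and the deposited values are log2 RMA values, in which a difference of 1 is 2-fold. Of 22746 probe sets, 112 for organellar genes were left out and 22634 were tested, 13628 of them with 1 named gene. The shoot arrays correlated with the other shoot arrays at a mean r of 0.974 to 0.983, apart from 1 array of 50 kPa/NormOx (50 kPa with oxygen restored) at 0.897, which was in neither group but entered the pooled spread. Among the 5 arrays compared, r ranged from 0.978 to 0.996 within a group and from 0.983 to 0.992 between the groups. The 7 measured nuclear photosynthesis genes, which mark green tissue, were bright in both groups, from PSAD-1 at 11.18 to RCA at 12.46 in the mean of the 25 kPa arrays. Of 4 measured root markers, the glucosidase PYK10, which is also made in hypocotyls, read 9.41, 8.83 and 8.75 at 25 kPa and 9.62 and 9.87 at 97 kPa/HypOx, a log2 difference of -0.75 ± 0.34 (SE; 95% interval -1.47 to -0.026). The phosphate exporter PHO1 had a difference of -0.58 (95% interval -1.23 to 0.08), whereas the root hair expansins EXPA7 and EXPA18 had differences of 0.31 and 0.38, so the 4 markers did not move together. The part of root or hypocotyl tissue in the results was not tested, and in bulk tissue fewer cells of a type and less RNA per cell cannot be told apart.

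At nearly equal oxygen most shoot probe sets differed little, while the number past a p threshold depended on how the spread was estimated. Under the study's threshold (limma, unadjusted p under 0.01 and at least 2-fold), 2 probe sets were higher at 25 kPa (0.00884% of those tested) and 3 were lower (0.0133%). A single gene, AT5G66985, passed a Benjamini-Hochberg adjusted p of 0.05 (0.00442% of probe sets), and the adjusted p was 1.0 in this comparison for every other gene named below. Further, 572 probe sets, or 2.53%, had an unadjusted p under 0.05. Of the 572, 233 were higher at 25 kPa (1.03% of all tested) and 339 lower (1.5%). The count of 572 was 1167 without the outlying 50 kPa/NormOx array and 1691 with the 5 arrays alone. With the array weights described below it was 5496. The log2 difference was smaller than 0.5 for 22303 probe sets (98.5%), and its median was 0.0015. For 20421 probe sets (90.2%) the 95% interval of the difference lay wholly inside a 2-fold change in either direction. For the remaining probe sets it reached past 2-fold on at least 1 side. The count of 5 called probe sets was 1 without 97 kPa/HypOx replicate 1, 3 without 25 kPa replicate 1 and 24 with array weights, a fit in which 1780 probe sets had an adjusted p under 0.05 and 25 kPa replicate 1 counted several times as much as the other arrays of its group. The arrays of the groups failed to overlap for 2557 probe sets in the higher direction (11.3%) and 2921 in the lower (12.9%), and these shares are the background against which the gene groups below are read.

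**Figure D1:**
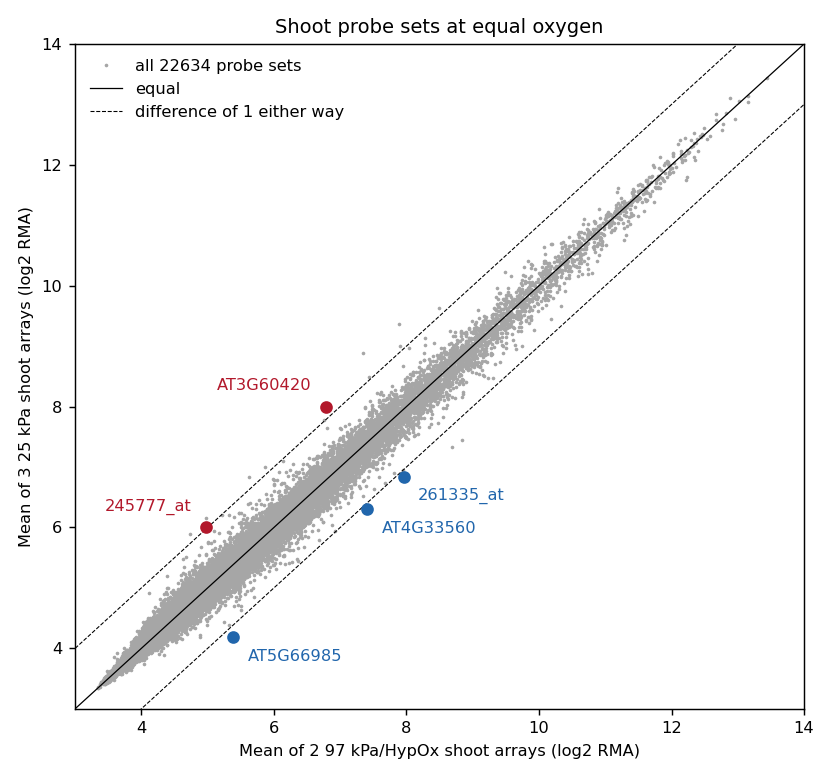
Mean log2 RMA value of each of 22634 probe sets in the 3 shoot arrays at 25 kPa (vertical axis) against the 2 shoot arrays at 97 kPa/HypOx (horizontal axis); the dashed lines mark a 2-fold difference, and the 5 probe sets past the study's threshold are colored red (higher at 25 kPa) or blue (lower). Nearly all points lie along the line of equality, with 98.5% of probe sets within 0.5 of it.

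The genes lower at 25 kPa than at 97 kPa/HypOx were led by low-oxygen genes. A log2 difference of -1 or below was found for 5 probe sets and one of 1 or above for 13. Of the 5, 4 belonged to the core low-oxygen list, a set of 34 genes that the study kept from a published hypoxia set. The strongest by its test was AT5G66985, a core gene of unassigned function, which read 4.30, 3.92 and 4.34 at 25 kPa and 5.49 and 5.28 at 97 kPa/HypOx. At 25 kPa replicate 2, at 3.92, was within 1 SD of the control mean of 3.87 ± 0.08 (SD, n = 3), and replicates 1 and 3 lay above it. All 3 of these arrays were below both hypoxic arrays. At 25 kPa and in the control the gene was dim, below the median of 5.14 over all shoot values. The SE was pooled over the shoot groups, where the SD of this gene was 0.23 at 25 kPa, 0.08 in the control and 0.03 at 25 kPa with oxygen restored. The gene was 2.3-fold lower at 25 kPa than at 97 kPa/HypOx, by 1.20 ± 0.13 (SE) on the log2 scale, with a limma adjusted p of 0.00318 over all probe sets. This adjusted p was 0.232 without 97 kPa/HypOx replicate 1, and 0.584 when the 5 arrays were fitted alone, within a range of 2.93e-06 to 0.584 over the alternatives that held the gene.

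The core gene AT4G33560, of a wound-responsive protein family, also passed the study's threshold. It read 6.65, 6.30 and 5.95 at 25 kPa and 7.79 and 7.03 at 97 kPa/HypOx, a log2 difference of -1.11 ± 0.24 (SE; 95% interval -1.64 to -0.59, limma adjusted p = 1.0). Every one of these arrays was above the control mean of 4.43, and the 25 kPa arrays stood between the control and normobaric hypoxia. The call was lost without 25 kPa replicate 3 (difference -0.94), without 97 kPa/HypOx replicate 1 (-0.73) and with array weights (-0.85). Its relative AT4G10270 read 7.63, 7.29 and 7.06 at 25 kPa and 8.77 and 8.60 at 97 kPa/HypOx (log2 difference -1.35 ± 0.72, 95% interval -2.89 to 0.18). Here the arrays did not overlap either, but the 25 kPa arrays were below the control mean of 7.91. The third probe set called lower, 261335_at, has no gene name in the tables used. It read 6.60, 6.69 and 7.24 at 25 kPa and 8.16 and 7.75 at 97 kPa/HypOx, a log2 difference of -1.12 ± 0.25 (95% interval -1.65 to -0.58), and was no longer called without 25 kPa replicate 1 (-0.99) or 97 kPa/HypOx replicate 1 (-0.91).

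The most negative difference of all was that of S-ACP-DES6 (AT1G43800), an acyl carrier protein desaturase. It read 7.61, 7.01 and 7.71 at 25 kPa and 8.83 in both 97 kPa/HypOx arrays, against a control mean of 6.42 ± 0.25 (SD, n = 3). The difference of -1.39 ± 0.48 (SE) missed the study's threshold with all 18 shoot arrays (95% interval -2.41 to -0.36) and passed it when the outlying 50 kPa/NormOx array was left out of the spread. All 3 arrays at 25 kPa lay above the control mean and below both hypoxic arrays.

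**Figure D2:**
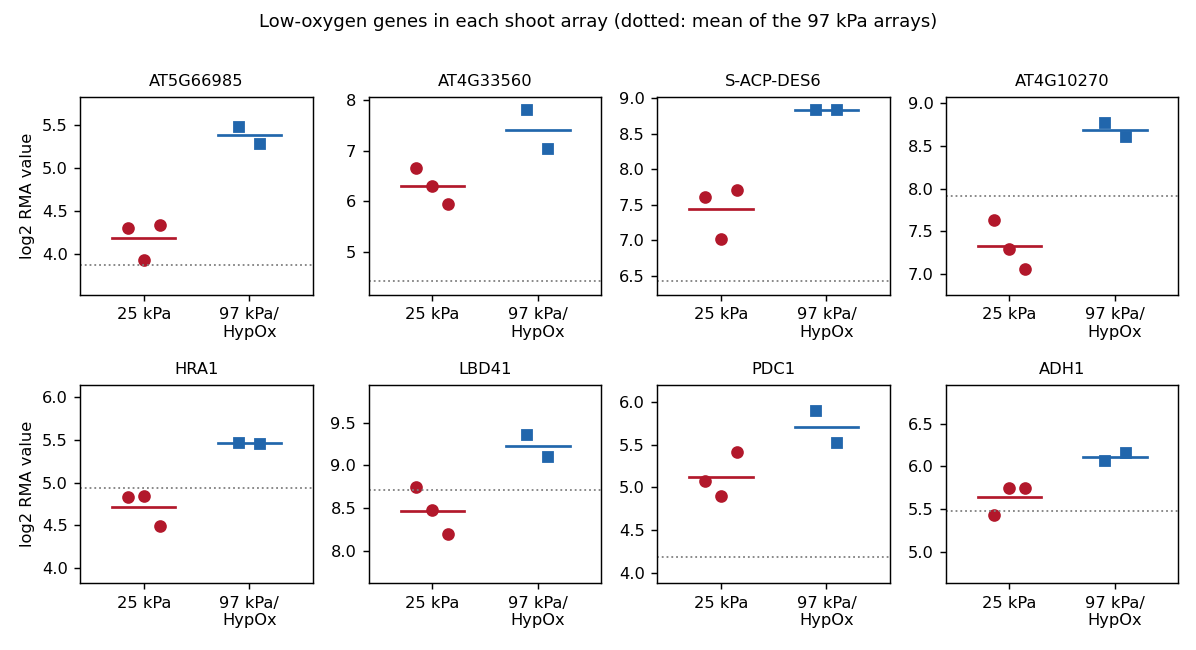
Log2 RMA values of 8 low-oxygen genes in each of the 3 shoot arrays at 25 kPa (red circles) and the 2 at 97 kPa/HypOx (blue squares); horizontal lines are group means and the dotted line is the mean of the 3 control arrays at 97 kPa, and each panel has its own vertical range. In all 8 panels every 25 kPa array is below both 97 kPa/HypOx arrays, for example at most 4.34 against at least 5.28 for AT5G66985. The 8 were picked for display from 47 low-oxygen genes, of which 23 were lower without overlap and 2 higher. Among all probe sets 12.9% were lower without overlap. The separation in every panel is therefore not separate evidence.

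The enzymes of ethanolic fermentation had smaller differences in the same direction. Pyruvate decarboxylase PDC1, which makes acetaldehyde from pyruvate, read 5.07, 4.90 and 5.41 at 25 kPa and 5.89 and 5.52 at 97 kPa/HypOx (log2 difference -0.58 ± 0.17, 95% interval -0.94 to -0.21). Alcohol dehydrogenase ADH1, which reduces the acetaldehyde to ethanol, read 5.42, 5.75 and 5.75 at 25 kPa and 6.06 and 6.15 at 97 kPa/HypOx (log2 difference -0.47 ± 0.14, 95% interval -0.76 to -0.17). A second decarboxylase gene, PDC2, differed by -0.47 ± 0.17 (95% interval -0.83 to -0.11). None of the 3 reached a 2-fold difference or an adjusted p of 0.05, while PDC1 and ADH1 had an unadjusted p under 0.01 and in each of the 3 the arrays of the groups did not overlap. The levels of PDC1 at 25 kPa stayed above its control mean of 4.18, whereas ADH1 at 25 kPa straddled its control mean of 5.48.

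Genes of sugar supply differed less clearly. The sucrose synthase genes SUS4 and SUS1, whose enzymes split sucrose, differed by -0.28 ± 0.28 (95% interval -0.89 to 0.33) and -0.06 ± 0.47 (95% interval -1.06 to 0.94), and the sugar kinase family gene AT2G31390 by -0.41 ± 0.18 (95% interval -0.81 to -0.022). SUS4 overlapped between the groups, with 6.01, 6.33 and 5.96 at 25 kPa and 6.60 and 6.17 at 97 kPa/HypOx. The sugar exporters SWEET10 and SWEET11 had differences of -0.83 (95% interval -1.75 to 0.09) and -0.73 (95% interval -1.51 to 0.04), without overlap and not called.

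Among the regulators, HRA1 (AT3G10040), a trihelix repressor that restrains group VII factors, had the interval farthest from 0. It read 4.83, 4.84 and 4.49 at 25 kPa and 5.47 and 5.46 at 97 kPa/HypOx, a log2 difference of -0.74 ± 0.17 (95% interval -1.11 to -0.37). At 25 kPa all 3 arrays were below its control mean of 4.93 as well. The LOB-domain factor LBD41 read 8.74, 8.47 and 8.20 at 25 kPa and 9.36 and 9.10 at 97 kPa/HypOx, without overlap (log2 difference -0.76 ± 0.51, 95% interval -1.84 to 0.33). The oxygen-sensing oxidases PCO1 and PCO2 differed by -0.32 ± 0.28 (95% interval -0.92 to 0.28) and -0.34 ± 0.59 (95% interval -1.59 to 0.92), intervals that reach to no difference and, for PCO2, past 2-fold. For PCO1 the arrays did not overlap, at 7.29, 7.25 and 7.29 against 7.68 and 7.52, and all lay above its control mean of 6.54. Transcripts of the group VII factors ERF71 and ERF73 differed by 0.08 ± 0.36 (95% interval -0.69 to 0.85) and -0.19 ± 0.19 (95% interval -0.59 to 0.21). Other factors of this group are not given here, and the arrays did not measure protein.

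Among the other low-oxygen genes, some 95% intervals included 0 and others lay below it. AHB1, a phytoglobin that scavenges nitric oxide, read 8.40, 7.77 and 8.12 at 25 kPa and 8.42 and 8.30 at 97 kPa/HypOx, overlapping between the groups and far above its control mean of 6.74 in both (log2 difference -0.26 ± 0.37, 95% interval -1.06 to 0.54). The ethylene-forming oxidase ACO1 likewise overlapped (-0.11 ± 0.34, 95% interval -0.84 to 0.63). The alanine aminotransferase AlaAT1 was slightly higher in every 25 kPa array (0.13 ± 0.33, 95% interval -0.56 to 0.83). The largest positive difference of the core list was that of AT1G72940 (0.79 ± 0.67, 95% interval -0.64 to 2.22). It read 6.72, 6.17 and 7.49 at 25 kPa and 6.16 and 5.85 at 97 kPa/HypOx, without overlap. The core gene AT3G23170 was also higher (0.28 ± 0.29, 95% interval -0.34 to 0.91), with overlap. By contrast AT3G27220 and AT4G24110, core genes of little known function, had differences of -0.64 (95% interval -1.01 to -0.28) and -0.69 (95% interval -1.18 to -0.20), without overlap.

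Over the whole core list, 29 of 34 genes had a negative difference, 2 passed the study's threshold lower and none higher. An unadjusted p under 0.05 was met by 10 of the 34 in the lower direction, against 1.5% of all probe sets, and by none in the higher direction. The arrays did not overlap for 15 genes lower at 25 kPa and 2 higher, against 12.9% and 11.3% of all probe sets. The median log2 difference was -0.34, against 0.0015 over all probe sets, and it was -0.38 over the 21 members that the platform annotation names. The study kept these genes because they had changed in its own samples, the 97 kPa/HypOx arrays included, so the list is not independent evidence of a direction. A further low-oxygen list of 21 genes, 13 of them named on the array, had all 13 differences below 0, a median of -0.31, 8 genes lower without overlap, 2 with an unadjusted p under 0.05 and none called.

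The size of these shifts depended on which hypoxic array was used. With each gene centered on its mean over the 5 arrays, the median of the core list was -0.03, -0.27 and -0.12 in the 25 kPa arrays, and 0.39 and 0.07 in the 97 kPa/HypOx arrays. Without 97 kPa/HypOx replicate 1 the median difference of the core list was -0.18 and that of the further list -0.17, and without replicate 2 they were -0.51 and -0.44. The sign held in each case.

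**Figure D3:**
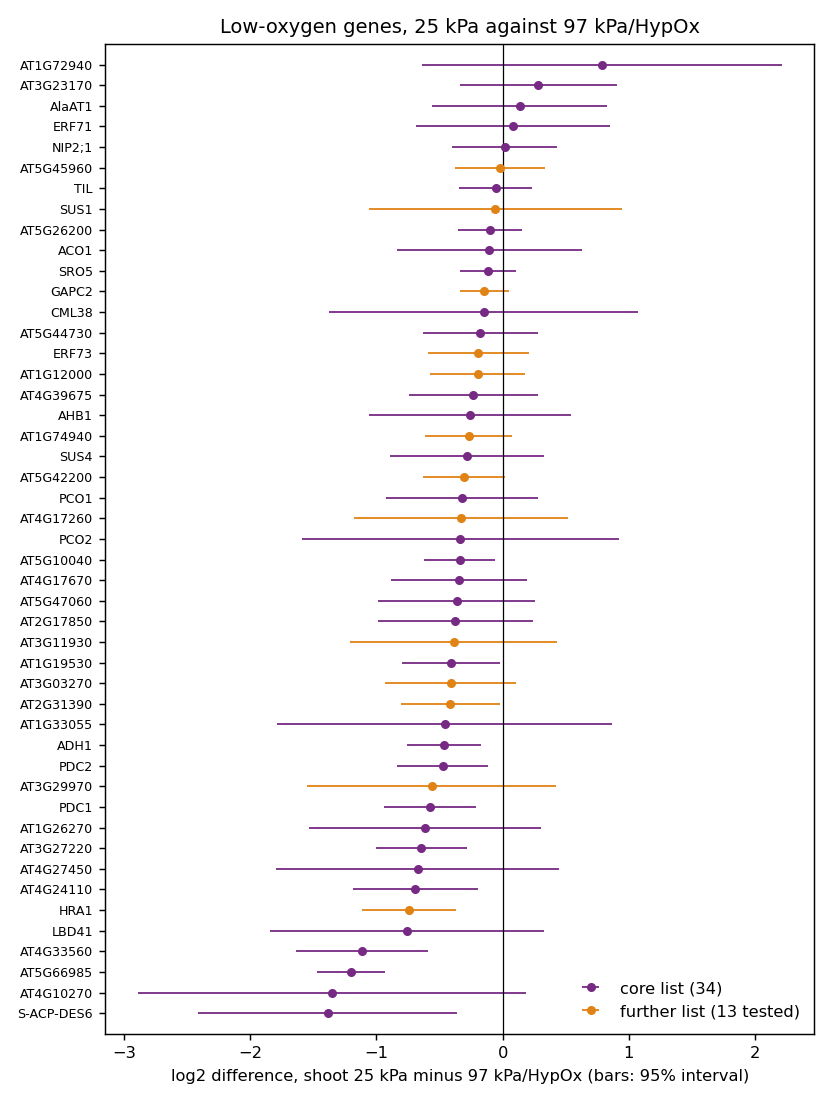
Log2 difference (25 kPa minus 97 kPa/HypOx, horizontal axis) of each of 47 low-oxygen genes in shoots, with 95% intervals from limma as bars; purple marks the 34 core genes and orange the 13 further genes, sorted by difference. Of the 47 differences 42 lie below 0, from -1.39 for S-ACP-DES6 upward, and most intervals include 0.

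In the opposite direction, a neighboring group of lipid transfer genes read higher at 25 kPa. EARLI1, AZI1, AT4G12490 and AT4G12500 lie close together on chromosome 4 (order taken from RefSeq) and encode related proline-rich lipid transfer proteins; AZI1 is known for priming systemic immunity. EARLI1 read 9.29, 9.16 and 8.19 at 25 kPa and 7.25 and 7.43 at 97 kPa/HypOx, the largest difference among all probe sets (1.54 ± 0.85, 95% interval -0.28 to 3.37). AZI1 read 9.74, 9.77 and 8.57 against 7.50 and 8.27 (1.47 ± 0.69, 95% interval -0.0016 to 2.95). AT4G12500 read 6.58, 6.61 and 5.29 against 5.06 and 4.89 (1.19 ± 0.45, 95% interval 0.22 to 2.15). For each of the 3 genes every 25 kPa array was above both hypoxic arrays, and replicate 3 at 25 kPa was the lowest of its group. The neighbor AT4G12490 read 6.22, 6.86 and 5.55 against 5.24 and 5.39 (0.90 ± 0.51, 95% interval -0.19 to 1.99), also without overlap. None was called with all 18 shoot arrays. These genes are close relatives whose probe sets may share signal, which was not tested.

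The control means were 6.05 ± 0.87 (SD, n = 3) for EARLI1 and 7.11 ± 0.85 for AZI1. For AZI1 the 97 kPa/HypOx arrays, at 7.50 and 8.27, were within 2 control SDs of that mean, and so was 25 kPa replicate 3, at 8.57. For AT4G12500 the 97 kPa/HypOx arrays were at the control level of 4.88 ± 0.41 (SD, n = 3). The 25 kPa replicate 3 of this gene, at 5.29, was within 1 control SD of that level. Of 17 genes on the lipid transfer list 8 were measured by name, 5 of them higher at 25 kPa, all without overlap (11.3% of all probe sets did so), with a median over the 8 of 0.76. For 3 of the 8, EARLI1 and AZI1 among them, the name came only from the study's lists of genes changed in its own samples. The counts and the median are therefore not independent evidence of a direction. An unadjusted p under 0.05 was met by AT4G12500 and, in the lower direction, by AT1G62500, a proline-rich wall-linker protein (-0.69 ± 0.29, 95% interval -1.31 to -0.06).

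The 2 probe sets called higher at 25 kPa were AT3G60420, of the phosphoglycerate mutase family, and 245777_at, which has no gene name in the tables used. AT3G60420 read 8.29, 7.73 and 7.97 at 25 kPa and 6.74 and 6.84 at 97 kPa/HypOx, 2.31-fold higher at 25 kPa (1.21 ± 0.41, 95% interval 0.34 to 2.08). The 97 kPa/HypOx arrays were at the control level of 6.71 ± 0.54 (SD, n = 3), and the 25 kPa arrays lay above it. The call was lost when any 1 of the 5 arrays was left out, with the difference between 1.06 and 1.34, and with the replicate block (1.22). The probe set 245777_at read 5.44, 6.13 and 6.46 against 4.93 and 5.03 (1.03 ± 0.32, 95% interval 0.34 to 1.72), and kept its call when 25 kPa replicate 1 was left out but not when any other of the 5 was (0.81 to 1.09), nor with the 5 arrays alone (1.03), the replicate block (0.87) or array weights (0.61). For this probe set the 25 kPa arrays were spread around the control mean of 5.98, and the hypoxic arrays were the ones that stood below it.

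CML26, a calmodulin-like calcium sensor, read 5.66, 4.97 and 5.82 at 25 kPa and 4.56 and 4.69 at 97 kPa/HypOx (0.86 ± 0.31, 95% interval 0.19 to 1.52), without overlap and not called. The touch and calcium sensor list had a median of 0.08 over 4 of 7 genes, with CML37 lower without overlap (-0.09) and CML23 and AT1G76640 overlapping. The oxidative stress marker AT2G21640 had a difference of 0.44 ± 0.18 (95% interval 0.057 to 0.83) and the zinc finger STZ had a difference of 1.13 (95% interval -0.36 to 2.63), both without overlap, with the 25 kPa mean of STZ at 6.99 and its control at 6.64 ± 1.02 (SD, n = 3). The other 2 of the 4 measured of 16 reactive oxygen and glutathione genes, GSTF6 (0.11) and GSTU25 (-0.07), overlapped, and the median of the 4 was 0.27.

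Of the 13 probe sets with a difference of 1 or above, 10 did not overlap between the groups and 2 were called. Among all probe sets 11.3% were higher without overlap, but the 13 were picked by the size of this same difference. Their lack of overlap is therefore not separate evidence. The 13 were EARLI1, AZI1, AT4G12500, AT3G60420, STZ, the copper-related BCB and CSD2, AT4G27280 and 5 without a gene name, 245777_at among them. AT4G27280, of the calcium-binding EF-hand family, read 8.16, 7.65 and 9.66 at 25 kPa and 7.47 and 7.39 at 97 kPa/HypOx (1.06 ± 0.58, 95% interval -0.19 to 2.31), against a control of 8.45 ± 0.68 (SD, n = 3). It was chosen after its values were seen.

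Genes of copper metabolism varied as much within an atmosphere as between the atmospheres. Copper/zinc superoxide dismutases CSD1 and CSD2 and their copper chaperone CCS are known to be made when copper is plentiful, and the iron superoxide dismutase FSD1 when copper is short. CSD2 read 10.95, 8.09 and 9.87 at 25 kPa and 7.59 and 9.38 at 97 kPa/HypOx, an SD of 1.44 at 25 kPa and 1.27 at 97 kPa/HypOx around a difference of 1.15 ± 0.91 (95% interval -0.79 to 3.10). CCS ranked the top 3 arrays in the same order, with 8.24, 5.36 and 7.17 against 5.45 and 6.70 (0.85 ± 0.82, 95% interval -0.92 to 2.61). CSD1 did so too, with 11.34, 8.94 and 10.39 against 8.99 and 10.00 (0.73 ± 0.83, 95% interval -1.05 to 2.50). In all 3 genes replicate 1 at 25 kPa was highest, and replicate 2 at 25 kPa and replicate 1 at 97 kPa/HypOx were the 2 lowest, so the groups overlapped. FSD1 had its lowest value, 11.16, in the array where CSD2 was highest, and lay between 12.04 and 12.32 in the other 4.

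The blue copper protein BCB was higher in every 25 kPa array, at 9.79, 8.19 and 9.02 against 7.89 and 7.93 (1.09 ± 0.85, 95% interval -0.72 to 2.90). Of 15 genes on the copper list 7 were measured, 6 with a positive difference and a median of 0.74, but none with an unadjusted p under 0.05. Of the 7, 1 was higher and 1 lower without overlap, against 11.3% and 12.9% of all probe sets. For 5 of the 7 the name came only from the study's lists of genes changed in its own samples. These counts are therefore not independent evidence of a direction.

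**Figure D4:**
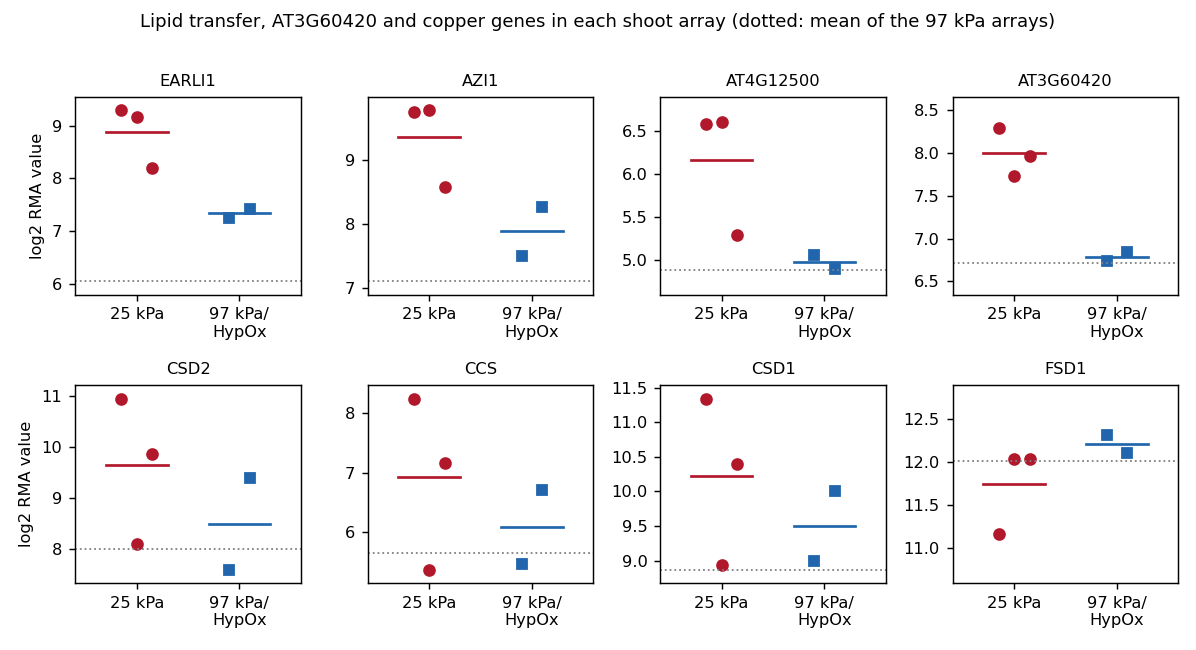
Log2 RMA values of 3 lipid transfer genes, AT3G60420 and 4 copper-related genes in each of the 3 shoot arrays at 25 kPa (red circles) and the 2 at 97 kPa/HypOx (blue squares), with group means as lines and the control mean at 97 kPa dotted; each panel has its own vertical range. The groups separate for the upper 4 genes, whereas CSD2, CCS and CSD1 overlap between the groups, CSD2 from 7.59 to 10.95.

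No member of the following lists was called. Jasmonate synthesis genes, known from wounding and drying, differed by 0.09 in the median over 6 of 15 genes, and none of the 6 was free of overlap. Lipoxygenase LOX2 read 10.73, 11.05 and 10.75 at 25 kPa and 10.91 and 10.58 at 97 kPa/HypOx, and the cyclase AOC1 read 9.65, 9.69 and 9.28 against 9.95 and 9.24, overlapping although both groups were above the control means of 9.72 and 7.71. The LOX2 difference was 0.095 (95% interval -0.31 to 0.50). Jasmonate output genes had a median of 0.28 over 5 of 16 genes, among them the lectin JAL22 at -0.68 (95% interval -1.40 to 0.03).

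Drought, cold and abscisic acid genes had a median of 0.19 over 7 of 34 genes. Of the 7, 3 were higher without overlap, against 11.3% of all probe sets, and none had an unadjusted p under 0.05. The cold-regulated COR15A, which protects chloroplast membranes from drying, read 5.74, 6.61 and 6.10 at 25 kPa and 5.52 and 5.68 at 97 kPa/HypOx, a difference of 0.55 ± 0.36 (95% interval -0.22 to 1.33). The dehydrin COR47 differed the other way, by -0.41 ± 0.31 (95% interval -1.08 to 0.25). Salicylate and defense genes had a median of 0.42 over 4 of 22 genes. Of the 4, 2 were higher without overlap, against the same 11.3%, and none had an unadjusted p under 0.05. The pathogenesis gene PR1 overlapped, at 10.53, 10.77 and 10.63 against 10.72 and 9.44. The 7 of 26 photosynthesis genes measured all had small positive differences, from 0.0036 for RCA to 0.16 for PSAD-1, with a median of 0.11.

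Wall-loosening expansins and xyloglucan enzymes had a median of -0.17 over 9 of 23 genes, led by EXPA15 (-0.57 ± 0.37, 95% interval -1.36 to 0.23) and XTH19 (0.40 ± 0.21, 95% interval -0.041 to 0.84). Iron genes had a median of 0.09 over 5 of 14, with the ferritins FER1 and FER4 at -0.30 (95% interval -0.96 to 0.37) and 0.18 (95% interval -0.12 to 0.49). The sulfur-starvation glucosidase BGLU28 spread widely, at 6.90, 7.89 and 6.09 against 8.07 and 7.81 (-0.98 ± 0.65, 95% interval -2.38 to 0.41). The heat shock, aquaporin, ethylene, clock and glucosinolate lists had 1 measured member each and the flavonoid and cell cycle lists 2, none of them with an unadjusted p under 0.05.

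The same comparison in roots used 3 arrays at 25 kPa and 3 at 97 kPa/HypOx. No root probe set was called and none had an adjusted p under 0.05, while 390 had an unadjusted p under 0.05, 178 of them lower (0.786% of all) and 212 higher (0.937%). The core low-oxygen list also leaned lower at 25 kPa in roots, with 27 of 34 differences negative, a median of -0.21, 3 genes with an unadjusted p under 0.05 in the lower direction and none in the higher. The further list had 12 of 13 negative differences, a median of -0.27 and 2 such genes. LBD41 differed by -0.79 ± 0.23 in roots (95% interval -1.28 to -0.29), close to its shoot difference, and AT4G24110 by -0.86 ± 0.25 (95% interval -1.42 to -0.31).

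Several of the genes that led in shoots went the same way in roots. There 261335_at, called lower in shoots, differed by -0.67 ± 0.21 (95% interval -1.13 to -0.22), AT4G10270 by -0.63 (95% interval -1.87 to 0.61) and S-ACP-DES6 by -0.50 (95% interval -1.51 to 0.51). Others had root differences nearer to 0. AT5G66985 differed by -0.16 ± 0.54, AT4G33560 by -0.17 ± 0.54, AT3G60420 by 0.08 ± 0.18, EARLI1 by -0.11 ± 0.27 and AZI1 by 0.18 ± 0.18. The shoot difference minus the root difference was tested in a fit of all 33 arrays. It was 1.13 ± 0.46 for AT3G60420 (95% interval 0.18 to 2.09) and 1.18 ± 0.51 for AT4G12500 (95% interval 0.13 to 2.23), but -1.04 ± 0.58 for AT5G66985 (95% interval -2.24 to 0.15) and 1.66 ± 0.93 for EARLI1 (95% interval -0.27 to 3.59). For ADH1 it was -0.52 ± 0.25 (95% interval -1.03 to -0.014), with a root difference of 0.06. None of these passed the study's threshold, which 4 other probe sets did (0.0177% of those tested), and none had an adjusted p under 0.05, so for these genes a difference between the tissues was not shown after adjustment.

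**Figure D5:**
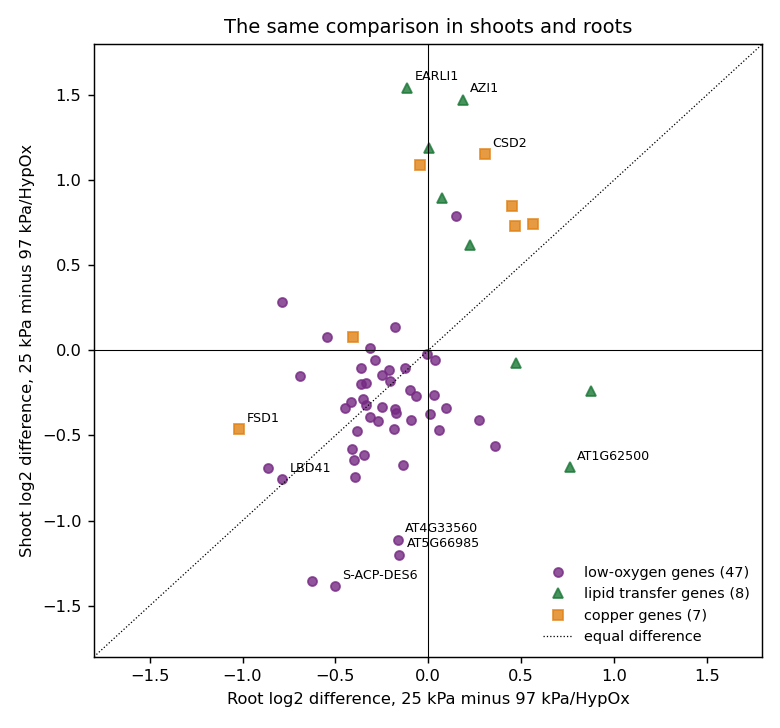
Log2 difference (25 kPa minus 97 kPa/HypOx) of list members in shoots (vertical axis) against roots (horizontal axis): 47 low-oxygen genes (purple circles), 8 lipid transfer genes (green triangles) and 7 copper genes (orange squares); the dotted line marks equal differences. Low-oxygen genes gather below 0 on both axes, with medians of -0.34 in shoots and -0.25 in roots, while EARLI1 and AZI1 are high in shoots and near 0 in roots.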

How the data were processed

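Shoot and root RNA was hybridised to Affymetrix ATH1 arrays. Per the labels and methods, the authors normalised the arrays with RMA (submitters' processing notes: RMA, Affymetrix Expression Console; versions not given in the sources used here) and deposited log2 values, 1 table over 33 arrays; RMA shrinks large differences of dim probe sets. RMA was taken to have been run on each tissue separately. Root and shoot levels were therefore not compared, only differences within a tissue.

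Probe sets were named from the platform annotation (1 gene only) and, for 213 more, from the study's lists of probe sets, names only. The study had listed those 213 because they changed in its own samples. Counts over gene lists that hold them are therefore not independent evidence. The 503 probe sets with several genes stayed unnamed. Organellar probe sets were left out, as in the methods. limma 3.58.1 (R 4.3.3) was fitted to all 18 shoot arrays in 6 groups (the roots likewise), with the contrast 25 kPa minus 97 kPa/HypOx, two-sided; ± is the SE unless named SD, and 95% intervals are those of limma; adjusted p are Benjamini-Hochberg over 22634 probe sets. A probe set was called at an unadjusted p under 0.01 and a log2 difference of at least 1, the study's threshold. The difference between tissues was fitted to 33 arrays. The script was tested on simulated data. The number of arrays, 3 against 2, limits the precision.

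Named genes were the called ones, up to 15 a direction, called list members, those past the adjusted threshold, a panel of 24 genes (22 measured by name), the 2 lowest p in each list with at least 5 measured members, and the first unnamed called probe set in each direction; others were chosen after their values were seen. Members and lists were chosen with earlier results of these data known. Alternatives are given at the end.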

Additional observations from a re-analysis of the deposited data

Results flagged for a closer look

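For 4 probe sets the shoot difference (25 kPa minus 97 kPa/HypOx) differed from the root difference past the study's threshold when the difference itself was tested with limma, none with an adjusted p under 0.05. In each the shoot difference was negative and the root difference positive, at 0.55 for 247212_at (95% interval 0.077 to 1.03), 0.21 for AT2G40460, 0.28 for TBL45 and 0.13 for 251059_at, with intervals of the last 3 that include 0. For 247212_at, without a gene name, the shoot minus root difference was -1.41 ± 0.41 (SE; 95% interval -2.27 to -0.56). For AT2G40460, a gene of the nitrate and peptide transporter family, it was -1.09 ± 0.37 (95% interval -1.85 to -0.33). For TBL45, of a family linked to wall acetylation, it was -1.03 ± 0.32 (95% interval -1.69 to -0.38), and for 251059_at, without a gene name, -1.01 ± 0.36 (95% interval -1.75 to -0.27). With 1 of the 11 arrays left out the count was 1 to 8, with 1 to 4 of these 4 among them: 1 without root 25 kPa replicate 3 or shoot 25 kPa replicate 2, 2 without root 97 kPa/HypOx replicate 2 or shoot 97 kPa/HypOx replicate 1, and 8 without shoot 25 kPa replicate 3. Groups of 2 and 3 arrays were too small to test for an outlying array.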

How the results depend on the processing

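The count of 5 called probe sets was 4 to 7 with the 5 arrays alone, without the outlying 50 kPa/NormOx array, with a mean-variance trend, cyclic loess, dim probe sets left out or organellar ones kept. It was 8 at a fold of 1.8 and 24 with array weights, which gave 25 kPa replicate 1 a weight of 6.89 against 0.58 and 0.78 for replicates 2 and 3. With 1 of the 5 arrays left out it ranged from 1 (without 97 kPa/HypOx replicate 1; 3 without 25 kPa replicate 1) to 7. The count with an adjusted p under 0.05, 1, was 0 with the 5 arrays alone and with dim probe sets left out, which removes AT5G66985, and 1780 with array weights; leaving out 1 array gave 0 or 1. Why the weights add so many was not tested. The median of the core list ranged from -0.51 to -0.18 and that of the further list from -0.44 to -0.17 with 1 array left out; that of the lipid transfer list ranged from 0.62 to 1.02. The tissue difference count of 4 was 10 without the outlying array of each tissue and 1 to 8 with 1 array left out, and the root count of 0 was 0 to 3 (2 and 3 without root 25 kPa replicates 1 and 2, 1 and 3 without root 97 kPa/HypOx replicates 2 and 3). The replicate numbers could not be shown to pair the arrays (the same-numbered arrays' deviations correlated at 0.01 and -0.05). With the replicate block 4 probe sets were called in shoots, 3 of them among the 5, with 1 past the adjusted threshold, 6 for the tissue difference and 0 in roots.

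Of 539 values of the 42 named probe sets under the alternatives, 5 changed sign. AOC1, -0.058 with all arrays, was 0.021 with array weights and -0.41 to 0.29 with 1 array left out. LOX2, 0.095 with all arrays, was -0.073 to 0.26 with 1 array left out. AT3G60420 and 245777_at lost their calls under the block, and 245777_at also with the 5 arrays alone. The root and list alternatives were chosen after seeing the data.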
